A study of Microtus ochrogaster with 34 samples.

Results

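A group of 63 genes was much more expressed in regressed winter testes than in summer testes, yet had a mean in spermatogenically active winter testes close to the summer mean. The members were found among the 23038 genes of the deposited table by 3 conditions on group means. The mean of winter males without maintained spermatogenesis (W-) had to reach 5 RPKM (reads on a gene per kilobase of its exons, after scaling for library size). That mean had to be at least 4 times the mean of summer males (S), and the mean of winter males that maintain spermatogenesis (W+) had to stay below 1.3 times the S mean. The members were thus chosen by all 3 group means, and the values below describe the group and are no test of it.

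The samples were testes of wild *Arvicola terrestris scherman* (ATS), the montane water vole, from 18 S, 5 W+ and 11 W- males, with 1 library per animal. S males were trapped in July or August and winter males in January or February. All were wild-caught males of wild-type genotype, above the body weight taken to mark reproductive age, and none was treated. They were trapped at several sites in the Puy-de-Dôme over consecutive years. On the day of capture they were brought to an animal facility with controlled temperature and equal hours of light and dark, and fed carrots. The time from capture to sampling is not given. Winter males were assigned by testis histology, W+ having complete spermatogenesis and W- either empty seminiferous tubules or an intermediate state, so that W- joins 2 histological phenotypes that the labels do not tell apart. The reads were aligned to the genome of another vole, *Microtus ochrogaster*, which is also the organism on the labels.

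In seasonally breeding rodents the testis shrinks outside the breeding season. Meiotic and post-meiotic germ cells are lost, while spermatogonia and Sertoli, Leydig, peritubular, endothelial and resident immune cells remain. Most transcripts that are plentiful in an active testis belong to germ cells. Those of the remaining cells, spermatogonia among them, make up more of the RNA once the later germ cells are lost. In RNA of a whole testis, fewer cells of a type and less RNA per cell cannot be told apart. The genes are given only by Ensembl identifiers, none of which was found in the gene table used here. Members therefore have no symbol or known role below, no sequence is shown, and the tissue label was not checked against marker genes.

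The counted reads ranged from 5534633 to 63857259 in S libraries (median 7504568), from 4960104 to 8576453 in W+ and from 2938627 to 9653984 in W-. S replicates 12 to 15 were the deepest. Some libraries of a group were unusually alike. On a scale where 1 is the difference that sampling of reads alone gives, W- replicates 6 and 9 stood at 1.59, W- replicates 7 and 10 at 1.72, W- replicates 8 and 11 at 1.76, and S replicates 2 and 8 at 1.69. The remaining pairs ranged from 3.21 to 38.7 within W-, from 2.19 to 14.9 within S and from 4.23 to 18.8 within W+. Each of the 4 near pairs differed by more than sampling noise, but repeat libraries of 1 animal could do so too. This measure thus cannot tell whether the libraries of a near pair share an animal. All 34 libraries were kept, and results are also given with the near pairs averaged to 1 library each. By the study's account every library is a separate animal.

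The 63 members were modestly expressed genes. Their S means ran from 0.676 to 91.9 RPKM (median 2.24), their W+ means from 0.444 to 104 RPKM (median 2.72) and their W- means from 5.10 to 480 RPKM (median 11.6). In 26 members the W- mean was below 10 RPKM, in 30 it lay between 10 and 50, and in 7 it was 50 or more. The W- mean exceeded the S mean 4.00 to 15.6 times (median 4.98). This ratio was below 5 in 33 members, between 5 and 7 in 23 and at least 7 in the other 7. The ratio of W+ to S ran from 0.613 to 1.295 (median 1.18): it was below 0.9 in 6 members, between 0.9 and 1.1 in 13 and between 1.1 and 1.3 in 44. Thus most members lay in the upper part of the window that the rule allows, and 51 of 63 had a W+ mean above their S mean.

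The ceiling on W+ did not cut at a gap in the data. In all, 667 genes met the conditions on W- and S, and the 604 that were not members had a W+ mean of at least 1.3 times the S mean (median 1.75). Of the 667 genes, 44 had a W+ to S ratio between 1.1 and 1.3, 100 between 1.3 and 1.5, 343 between 1.5 and 2, 133 between 2 and 3, and 28 of 3 or more. The 3 members just inside the ceiling had ratios of 1.295, 1.293 and 1.292, and the 3 genes just outside had 1.305, 1.313 and 1.317. Around the fold condition, the 3 members just inside had a W- to S ratio of 4.00, 4.02 and 4.02, and the 3 genes just outside had 3.98, 3.96 and 3.95. Around the minimum level, the innermost members had W- means of 5.10, 5.10 and 5.33 RPKM, and the nearest genes outside had 4.97, 4.80 and 4.78 RPKM.

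**Figure D1:**
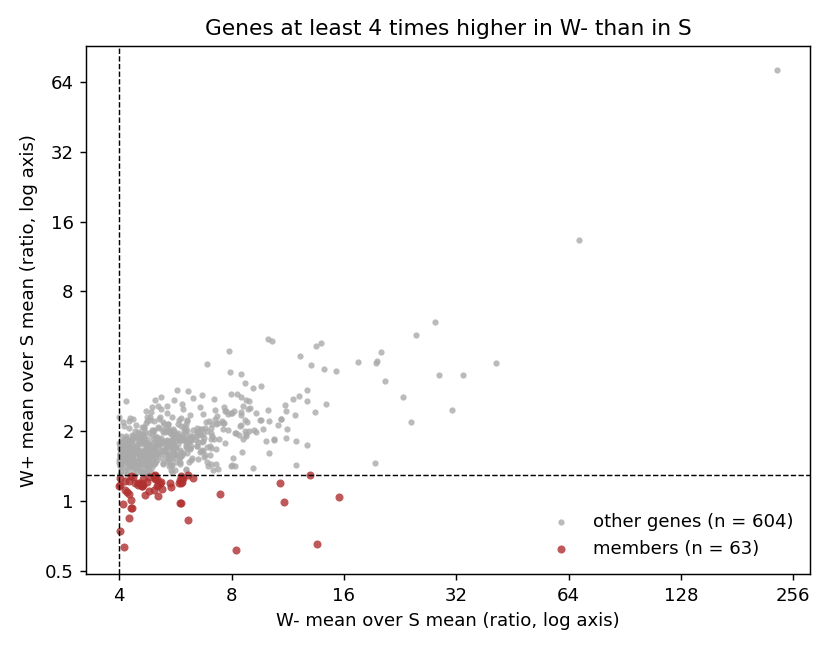
Each point is 1 of the 667 genes with a W- mean of at least 5 RPKM and at least 4 times the S mean, with the ratio of W- to S on the horizontal axis and of W+ to S on the vertical axis (both log axes). The dashed lines mark the conditions of 4 and 1.3. The 63 members (red) form the lower edge of 1 continuous cloud, in which the 604 other genes (grey) have a median W+ to S ratio of 1.75.

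2 members are given by identifier for the highest ratio of W- to S. The identifier ENSMOCG00000022275, with 971 exonic bases, had the highest ratio, 15.6. Its S values ran from 0.241 to 1.98 RPKM (median 0.772) in 18 libraries. In W+ replicates 1 to 5 it stood at 1.85, 0.153, 1.03, 0.792 and 0.621 RPKM, inside the S range except for replicate 2, which lay below it. In W- replicates 1 to 5 it stood at 24.7, 14.3, 20.9, 28.1 and 27.1 RPKM. W- replicates 6 to 11 held 2.30, 3.05, 11.8, 1.84, 2.42 and 10.2 RPKM. The W- group thus spread over more than a factor of 10, its lowest library (replicate 9) lay within the S range, and the near pairs 6 and 9, 7 and 10, and 8 and 11 held like values. The means were 0.857 ± 0.494 (SD, n = 18) in S, 0.888 ± 0.624 (SD, n = 5) in W+ and 13.3 ± 10.4 (SD, n = 11) in W-. Behind them stood 143, 35 and 1459 reads.

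The next identifier, ENSMOCG00000009276, had a ratio of 13.5 that rested on very few reads. Its exons span 85 bases, so that 1 read in a library was worth between 0.233 and 2.87 RPKM. It was at 0 in 13 of 18 S libraries, with 9 reads in the remaining ones, and at 0 in 4 of 5 W+ libraries, with 2 reads in W+ replicate 1. The 11 W- libraries held 87 reads in all, and their values ran from 0.903 to 20.8 RPKM (median 8.67) against at most 3.80 RPKM in S. A library without a read can still hold up to 3 reads' worth of this transcript, as much as 7.09 RPKM in the W+ libraries, so a summer level in W+ was not measurable for this gene at this depth. The other 3 members with a ratio of at least 10 had W- means of 7.45 to 31.5 RPKM, S means of 0.676 to 2.42 RPKM and W- to S ratios of 10.8 to 13.0. Among them, 1 member reached 108 RPKM in a W- library against a W- median of 19.2 RPKM and at most 4.69 RPKM in S.

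At the other edge, the 2 members with the lowest ratio of W+ to S were chosen after their values were seen. In ENSMOCG00000007735 the W+ mean was 0.549 ± 0.281 RPKM (SD, n = 5) against 0.895 ± 0.415 RPKM (SD, n = 18) in S, a ratio of 0.613. Its W+ values were 1.04, 0.453, 0.444, 0.342 and 0.460 RPKM, all within the S range of 0.260 to 1.76 RPKM. Its W- values were 7.49, 7.64, 8.60, 12.4 and 35.0 RPKM in replicates 1 to 5, and 0.923, 1.90, 2.43, 0.982, 1.06 and 2.38 RPKM in replicates 6 to 11. Replicate 5 alone held 43.3% of the W- sum, and 3 W- libraries lay within the S range.

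In ENSMOCG00000014458 the W+ to S ratio was 0.631, with W+ values of 0.947, 0.574, 1.16, 0.693 and 0.543 RPKM. S values ran from 0.615 to 3.24 RPKM (median 1.01). W- replicate 1 reached 34.5 RPKM and W- replicate 2 reached 7.54 RPKM, while the other 9 W- libraries ran from 0.735 to 2.83 RPKM. Replicate 1 held 61.5% of the W- sum, the largest such share among the 63 members, and without it the W- to S ratio was 1.74. This gene is thus a member through W- replicate 1.

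**Figure D2:**
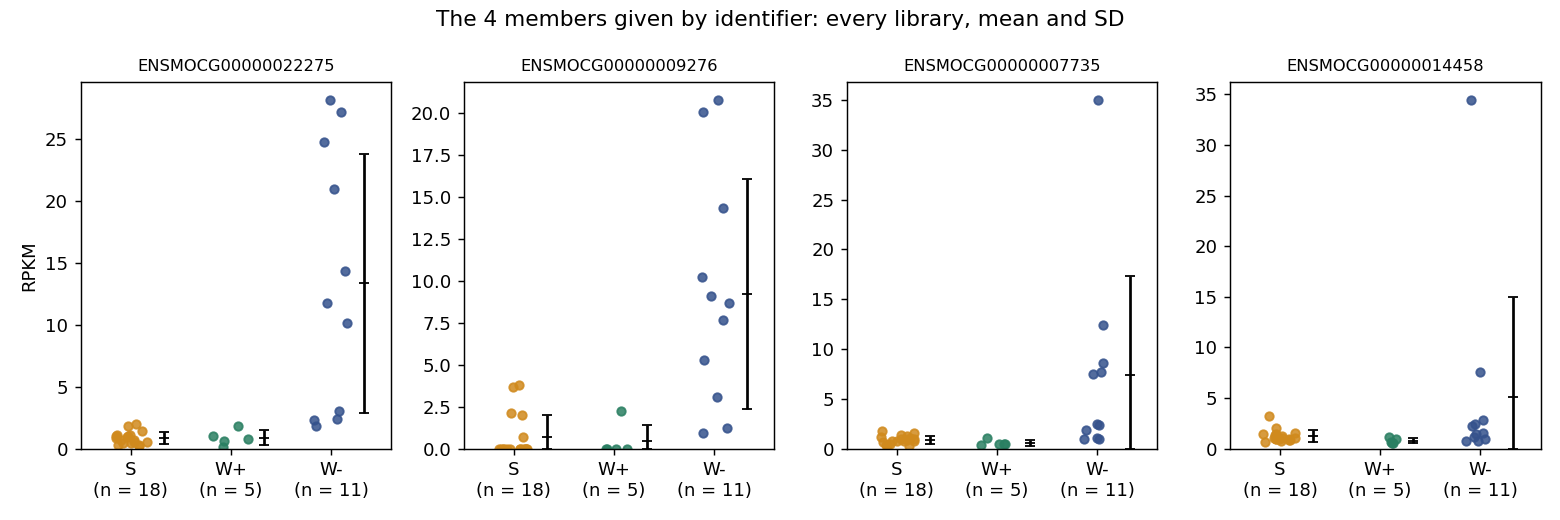
RPKM of the 4 members given by identifier, 1 point per library in S (n = 18), W+ (n = 5) and W- (n = 11), with the group mean and SD as a bar beside the points (lower arms end at 0). W- values are spread widely in each panel, and 1 W- library stands far above the others in ENSMOCG00000007735 (35.0 RPKM) and ENSMOCG00000014458 (34.5 RPKM).

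Dependence on 1 library was not confined to that gene. The top W- library held 12.8% to 61.5% of a member's W- sum (median 18.8%), and over 25% in 13 members. When each member's own top W- library was left out, 41 of 63 still had a W- mean of at least 4 times the S mean. With medians in place of means, 31 of 63 kept a W- to S ratio of at least 4 and 48 of 63 kept a W+ to S ratio below 1.3. In 22 members the W+ median was at or below the S median.

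The most abundant member, with exons of 549 bases, shows the pattern in the deposited scaling, at a level where counting error is small. It had 10359 reads over the S libraries, 2250 over W+ and 30811 over W-. Its S values ran from 58.0 to 155 RPKM (median 90.0). The W+ values were 192, 83.3, 95.4, 68.6 and 79.8 RPKM in replicates 1 to 5, so that replicate 1 exceeded every S library and the other 4 lay within the S range. W- values ran from 256 to 1175 RPKM (median 378), with replicate 1 the highest, and none overlapped S or W+. The means were 91.9 ± 26.0 (SD, n = 18), 104 ± 50.005 (SD, n = 5) and 480 ± 271 (SD, n = 11). The other 6 members with a W- mean of 50 RPKM or more had W- means of 50.9 to 158 RPKM, with W- to S ratios of 4.02 to 5.18 and W+ to S ratios of 0.846 to 1.28. The higher-level members thus lay near the lower end of the fold range, and the 5 members with a ratio of 10 or more had W- means of at most 31.5 RPKM.

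The libraries differed in how many members they raised. In single S libraries, the median of the 63 ratios to the S mean ran from 0.826 to 1.26. In W+ replicates 1 to 5 it was 1.79, 0.968, 1.01, 0.924 and 0.910. In W- replicates 1 to 5 it was 7.46, 6.08, 5.07, 6.34 and 6.89, and in W- replicates 6 to 11 it was 3.04, 3.15, 3.38, 2.88, 2.82 and 3.35. Every W- library thus lay above every W+ and S library on this median, and the W- libraries fell into a higher and a lower set without any value in between. The 3 near pairs of W- libraries were all in the lower set.

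**Figure D3:**
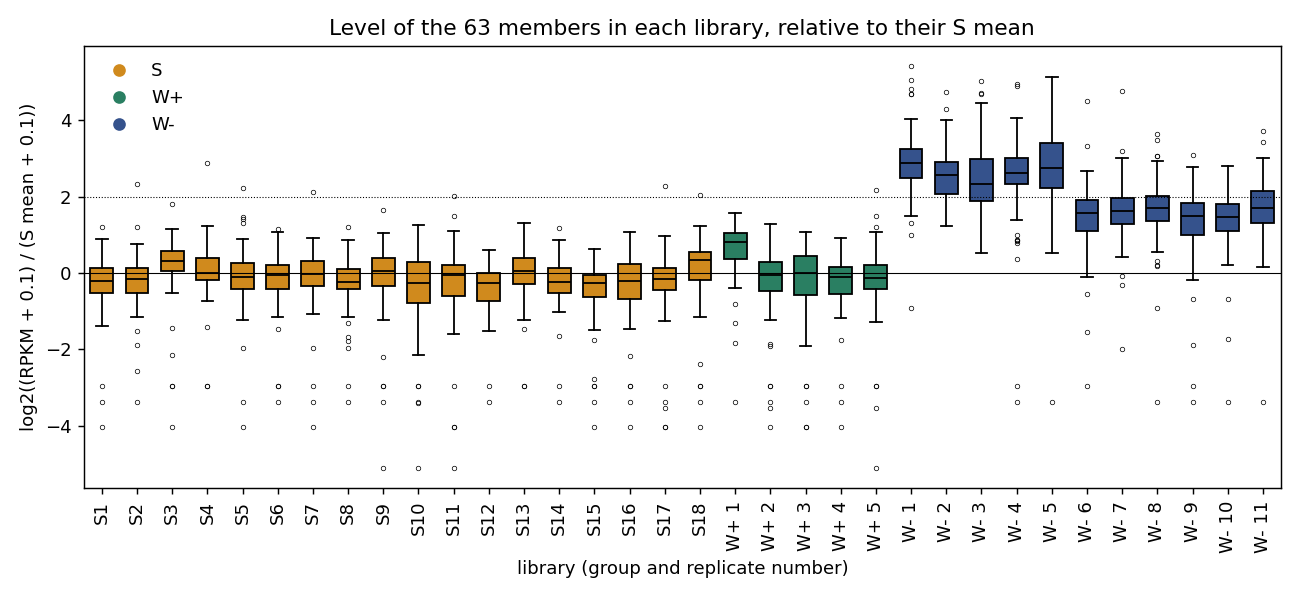
Box plots of the 63 members in each of the 34 libraries, as log2 of (RPKM + 0.1) over (S mean + 0.1). Boxes span the quartiles with the median as a line, whiskers reach 1.5 times the box height, and points are single members beyond them. The solid line is the S mean and the dotted line 4 times the S mean on this scale. W- replicates 1 to 5 sit highest, W- replicates 6 to 11 lower, W+ replicate 1 above the other W+ libraries, and W+ replicates 2 to 5 level with S.

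At least 4 times the S mean was reached by 53, 51, 45, 51 and 51 of the 63 members in W- replicates 1 to 5, and by 14, 17, 21, 10, 10 and 21 in W- replicates 6 to 11. No S or W+ library held more than 1 such member. At least 2 times the S mean was reached by 48 to 63 members in each W- library. The W- mean of at least 4 times S thus joined libraries far above that mark with libraries below it. The highest W- value of a member fell in W- replicate 1 for 22 members, in replicate 5 for 17, in replicate 4 for 10, in replicate 3 for 8 and in replicate 2 for 1, and in replicates 6 to 11 for the remaining 5. In 24 of 63 members every value of W- replicates 1 to 5 exceeded every value of replicates 6 to 11, as in 155 of the 604 other regression-high genes and in 8.28% of the 19185 genes tested. This division of the libraries was noticed in these data and is not given by the labels.

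**Figure D4:**
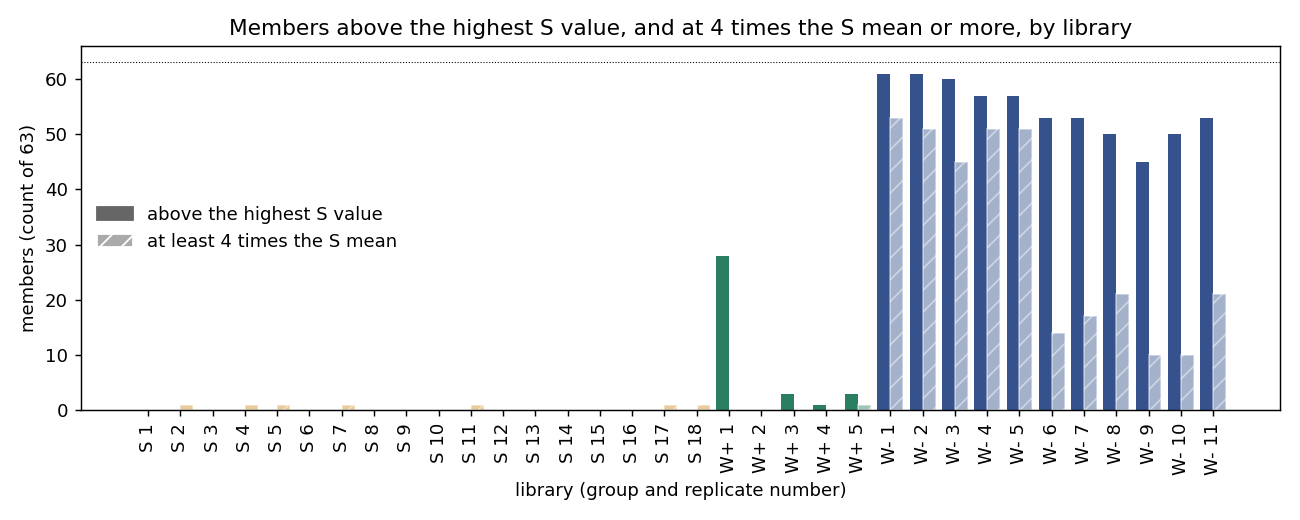
For each library, the full bar counts the members (of 63, dotted line) above the highest S value and the hatched bar those at 4 times the S mean or more. W- libraries have 45 to 61 members above the S range, W+ replicate 1 has 28 and the other W+ libraries have at most 3. The hatched bars stand at 45 to 53 in W- replicates 1 to 5 and at 10 to 21 in W- replicates 6 to 11.

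Genes that are high in summer did not order the W- libraries in the same way. Over 1550 genes with an S mean of at least 5 RPKM and at least 8 times the W- mean, the median log2 ratio to the S mean was -4.46, -4.54, -3.99, -4.01 and -6.21 in W- replicates 1 to 5. It was -5.02, -4.92, -4.61, -4.99, -4.91 and -4.69 in W- replicates 6 to 11. W- replicate 5 thus had the lowest level of summer-high genes together with a high level of the members. It was also the shallowest library, with 2938627 counted reads. There 1 read on a gene of median exonic length was worth 0.152 RPKM, so its low value for summer-high genes can rest on few reads per gene. Each of W- replicates 1 to 4 had higher levels of both sets of genes than any of W- replicates 6 to 11. The part of this difference in the members' level was not tested.

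W+ replicate 1 stood apart from the other W+ libraries. It had the highest W+ value in 43 of 63 members, and exceeded every S library in 28 members, against 0, 3, 1 and 3 members in W+ replicates 2 to 5. Over all genes tested, W+ replicate 1 was the highest W+ library in 28.1% and exceeded every S library in 20.7%. In the 604 other regression-high genes it was the highest in 433 and exceeded every S library in 511, but those genes were chosen for a higher W+ mean, and nothing is read from this difference. It also had the lowest level of the summer-high genes among W+ libraries, at a median log2 ratio to S of -1.90 against -1.23, -0.67, -0.82 and -0.75 in W+ replicates 2 to 5. With 8576453 reads, it was the deepest W+ library.

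Within W+ replicates 2 to 5, between 57 and 59 of the 63 members lay inside the S range, against 34 in W+ replicate 1. All 5 W+ values lay inside the S range in 27 members (34.5% of all genes tested) and 4 of 5 in a further 26. For the other counts inside the S range, no share over all genes is given. The ceiling on the W+ mean favours such values, so nothing about the members is read from these counts. Without W+ replicate 1 the median log2 ratio of W+ to S over the members was 0.013 instead of 0.23, and 31 of 63 members had a W+ mean at or below the S mean. The ceiling on W+ also let in many more genes: 171 genes then met the rule, among them 61 of the 63. The number of genes that met the rule thus turned on this 1 library more than on any other, since leaving out any other single library gave between 47 and 74 genes.

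The separation of W- from the other groups was incomplete in part of the members. Every W- value exceeded every S value in 37 of 63 members (15.1% of the 19185 genes tested), and every W- value exceeded every W+ value in 39 (10.4%). In the 604 other regression-high genes these counts were 518 and 361. Of the 26 members whose W- values overlapped S, 15 had 8 to 10 of the 11 W- libraries above the S range, 7 had 5 to 7 and 4 had fewer than 5. W- replicates 1 to 5 were all above the S range in 51 members and W- replicates 6 to 11 in 39. For the counts of W- libraries above the S range, no share over all genes is given. Since the rule used these contrasts, nothing about the members is read from any of these counts.

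The same holds for the fitted comparisons, made with limma on log2(RPKM + 0.1) over 19185 genes and called at an adjusted p under 0.05 and a log2 fold change beyond 1. In W- against S, 61 of 63 members were called higher in W- (22.8% of genes tested), with a median log2 difference of 2.12 over the members and -0.045 over all genes. In W+ against W-, 60 of 63 were called lower in W+ (15.4%), with a median of -1.96 over the members and -0.023 over all genes. In W+ against S, none of the 63 was called either way (1.19% of genes tested were called higher and 7.04% lower in W+). None of the 63 had an unadjusted p under 0.05 in that comparison with limma (37.6% of genes tested did). Voom on the recovered reads likewise called none of the 63 (1.78% of genes were called higher and 7.97% lower in W+). In the limma fit on log2(RPKM + 0.1), the members' median log2 difference of W+ against S was 0.18, with a median SE of 0.33. Differences of moderate size in either direction were thus not detectable in a single member with 5 W+ libraries. With the near pairs averaged, 63 members were called higher in W- than in S (4492 of 19093 genes tested). In that setting 61 were called lower in W+ than in W- (3217 of 19093).

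How close the members came to the summer level depended on the scaling between libraries. The deposited values were scaled so that the typical gene is equal between libraries. When libraries were scaled by their total of counted reads, the median log2 ratio to S over all genes tested moved to 0.71 for W- and to 0.30 for W+, from -0.0047 and -0.051 as deposited. The members moved with it, to a median log2 ratio of 3.01 for W- and 0.61 for W+. Relative to the median of all genes they stayed at 2.30 against 2.32 for W-, and at 0.31 against 0.29 for W+. On that scale the W+ to S ratio ran from 0.811 to 1.70 (median 1.53), 11 of the 63 members remained below 1.3, and all 63 remained at 4 times S or more in W-. TMM factors left 49 of 63 below 1.3 and quantile normalization left 56. The most abundant member was among those lost, with a W+ to S ratio of 1.57 under quantile normalization and 1.48 with total reads. Under quantile normalization the other members with a W- mean of 50 RPKM or more had ratios of 1.42, 1.33, 0.914, 1.42, 1.45 and 1.29.

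The direction of calls over all genes moved with the scaling as well. Of the genes called in W- against S, 44.2% were higher in W- as deposited, 65.3% with total reads and 59.1% with quantile normalization. Of those called in W+ against W-, 58.8% were higher in W+ as deposited, 39.9% with total reads and 41.8% with quantile normalization. For W+ against S the share higher in W+ was 14.5%, 61.4% and 25.9%. No member was called in W+ against S under any of these 3 scalings, where 1579 of 19185, 1530 of 19184 and 1269 of 19165 genes were called.

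**Figure D5:**
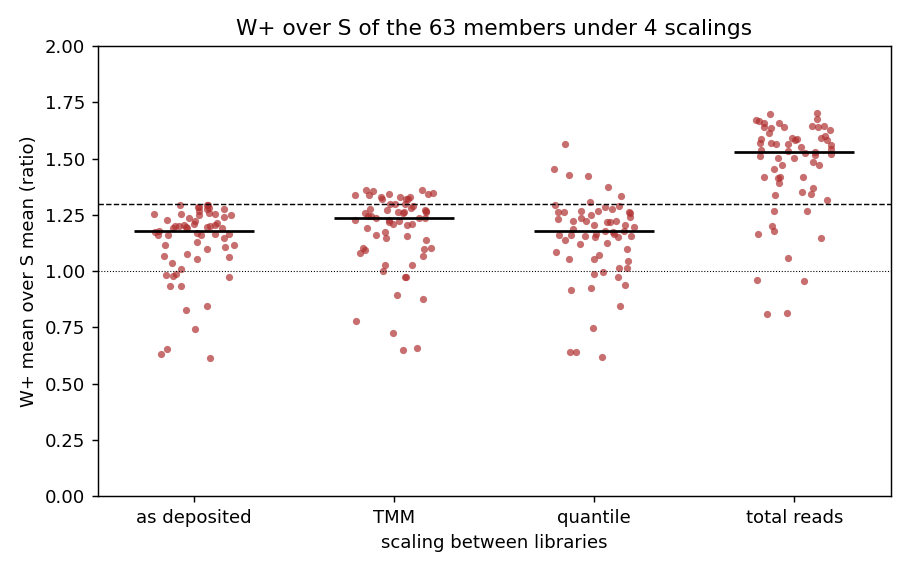
Ratio of the W+ mean to the S mean (vertical axis, from 0) for the 63 members under 4 scalings between libraries, with 1 point per member and the median as a bar. The dashed line is the ceiling of 1.3 and the dotted line equality. As deposited all members lie below the ceiling, which is how they were chosen, and with total reads 11 do.

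As a share of all counted reads, the 63 members together took 0.0259% to 0.0479% in S libraries and 0.176% to 0.449% in W- libraries. W+ replicates 2 to 5 held 0.0445%, 0.0449%, 0.0374% and 0.0390%, inside the S range, and W+ replicate 1 held 0.0904%, between S and W-. Only W+ replicate 1 of the W+ libraries thus lay outside the S range, but each of W+ replicates 2 to 5 lay above the S median of 0.0324%. A share of counted reads is scaled by total reads, where the members' W+ to S ratios were higher than as deposited.

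Some features that the rule did not use directly can be set beside those of the other regression-high genes. The members had a median exonic length of 1239 bases (44 to 8069), the 604 other genes 1766 and all 10241 genes with a W- mean of at least 5 RPKM 1864. Exons of under 1000 bases in all were found in 23 of 63 members, in 136 of 604 other genes and in 2486 of the 10241. The members also varied more within each group. The median SD of log2(RPKM + 0.1) was 0.54 in S, 0.64 in W+ and 0.79 in W- for the members, against 0.43, 0.50 and 0.55 for the other genes. These are descriptions, and the differences were not tested. Few reads and uneven values both bear on the group means that the rule used. The choice of members can thus make such differences by itself, and nothing about the members is read from them.

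Few reads stood behind a minority of the members. In 9 members the 5 W+ libraries together held under 30 reads, and in 5 of these under 10. The 9 had exonic lengths of 44 to 654 bases (median 95), some shorter than the 75-base reads, and 8 of them had W- values that overlapped S. The shortest member, of 44 bases, had 5 reads in all S libraries, 1 in W+ and 30 in W-. It was at 0 in 6 of 11 W- libraries, and its largest value was 27.7 RPKM in W- replicate 7. In these members a difference of moderate size between W+ and S was not detectable at this depth. The other 54 members had 35 to 2250 W+ reads, W- means of 5.10 to 480 RPKM and a median W+ to S ratio of 1.19. Of all 63, 55 were above 0 in every library.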

How the data were processed

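Testis poly(A) RNA was sequenced in single-end reads of 75 bases. Per the labels and the study's methods, the authors trimmed reads with Trim Galore 0.6.10 and checked them with FastQC 0.12.1. Alignment was by Hisat2 to MicOch1, the prairie vole genome, counting per gene by HTSeq-count and scaling by DESeq2. The strand setting and the treatment of multiply aligned reads are not given in the sources, so that reads shared between copies, overlapping genes or antisense genes cannot be assigned. The deposited values are RPKM.

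For all 20821 genes above 0, RPKM gave back whole reads (tolerance 0.02), and exonic lengths came out whole for 99.9%. Depth is therefore known, and counting error only is covered by the limit of 3 reads given for a library at 0. The main fit used the RPKM as deposited in limma 3.58.1 (R 4.3.3) on log2(RPKM + 0.1), all 34 libraries, no block, with genes at 0.1 RPKM in at least 5 libraries. The added pseudocount makes fold changes of low genes smaller. Read recovery and fit were tested on simulated data. Adjustment was Benjamini-Hochberg over all genes tested, and p-values measure the spread between these animals. Voom on the recovered reads was an alternative.

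The members and lists were chosen with earlier results of these data known. The rule for named genes gave, without symbols, the 2 highest ratios of W- to S. None of the 23038 identifiers matched the 26397 genes of the RefSeq table (MicOch1.0), so that gene lists, cell type markers, promoters and proteins were not analysed here. No batch is given in the labels.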

Additional observations from a re-analysis of the deposited data

Results flagged for a closer look

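W+ replicate 1 was the highest of the 5 W+ libraries, and separated from the other 4 by more than Dixon's limit of 0.71 (gap to the next library over the whole range), in 8 of 11 W+ measures examined. The gap was 0.891 for the median ratio of the members to the S mean, 0.842 for their summed RPKM, 0.893 for the number of members above the S range and 0.858 for their share of reads. It was 0.868 for the median ratio of the other regression-high genes, 0.782 for the most abundant member, 0.832 for ENSMOCG00000007735 and 1 for ENSMOCG00000009276, where it rests on 2 reads. These measures share the same libraries and are not independent. Chance alone marks about 1 in 20 groups of normally distributed values, which these measures need not be. The share marked over all genes tested, given next, was higher than that. Gene by gene, 10 of 63 members passed the limit, in 7 of them with W+ replicate 1 highest, against 11.4% of the 19185 genes tested (889 of 2184 with W+ replicate 1 highest). The rule used the W+ mean, so that nothing about the members is read from these counts. The cause was not tested.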

How the results depend on the processing

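The count of 63 genes became 171 with quantile normalization, 234 and 30 with a fold of at least 3 and 5, 40 and 163 with a ceiling of 1.2 and 1.5, and 116 and 37 with a minimum W- mean of 2 and 10 RPKM. Without W- replicates 9 to 11 it was 97, and with the near pairs averaged 89, of which 62 and 58 were among the 63 (both chosen after seeing the data). Leaving out 1 library gave 47 to 171 genes, the highest without W+ replicate 1. Scaling by total reads gave 79 genes, of which 11 were among the 63, TMM 63 (49), group medians 77 (24) and leaving out S replicates 12 to 15 gave 64 (52), so that a similar count did not mean the same genes. The members' median log2 ratio of W- to S was 3.01 with total reads. It ran from 1.97 to 2.68 in the 6 other settings that can change it, less than the SD between W- libraries away from 2.32. That of W+ to S was 0.23 as deposited, and ran from 0.013 without W+ replicate 1 to 0.61 with total reads. All 11 settings stayed within the SD between W+ libraries, but W+ replicate 1 widens that SD, so this limit decides little. Genes called without a fold threshold numbered 15348, 12243 and 5050 for W- against S, W+ against W- and W+ against S, instead of 9890, 7165 and 1579. In W+ against S, a pseudocount of 1 gave 1010 calls, and leaving out 1 W+ library gave 921 to 1777, the lowest without replicate 1. Under the 17 settings, 60 to 63 members were called higher in W- than in S and 58 to 61 lower in W+ than in W-. Over all genes, calls higher in W- than in S ran from 2990 of 19185 (pseudocount 1) to 7399 of 19184 (total reads). Calls lower in W+ than in W- ran from 1769 (pseudocount 1) to 6009 (no fold threshold) of 19185. The rule used these contrasts, so the steady member counts are no sign of robustness. In W+ against S, 0 to 2 members were called, the 2 (lower in W+) only under the replicate block, with 1641 of 19185 genes called lower. That block gave 9962, 7529 and 2001 calls. The replicate numbers are not stated to pair animals: deviations of same-numbered libraries correlated at -0.16 to 0.14, and 2 of the 21 best matches carried the same number. The tests of gene lists outside the members, and of promoter and protein features, were not run, since no identifier could be paired with a symbol. Apart from the thresholds and libraries that were changed by construction, the cause of these shifts was not tested.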
